A study of Mus musculus with 12 samples.

Results

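The 58 genes described here act in mitosis, the division of copied chromosomes between daughter cells, and many of them build the kinetochore, the protein plate that ties a chromosome to the spindle. They were chosen by gene symbol, all 58 were found among the 55011 symbols of the count table, and all 58 passed the low-count filter that left 13295 genes for testing. They were read in regulatory T cells (Treg), a CD4 lineage that keeps other immune cells in check and is defined by the transcription factor Foxp3. Cells were sorted as DAPI-, TCRβ+, CD4+, GFP+ and CD25+ from 21-day-old male C57BL/6 mice, 1000 cells a library, in 4 groups of 3 libraries (spleen ∆Foxp3, spleen WT, lung ∆Foxp3 and lung WT). RNA was read by Smart-seq2, a method that copies and amplifies polyadenylated RNA from few cells.

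The genotype label of the spleen ∆Foxp3 libraries is ∆Foxp3.EGFP.iCre X R26.YFP, a deleted Foxp3 with a green reporter and a Cre recombinase, beside a yellow reporter. That of the lung ∆Foxp3 libraries is ∆Foxp3.ires.GFP, a deleted Foxp3 with a green reporter alone. WT cells of both tissues carried Foxp3.ires.GFP, an intact Foxp3 gene with a green reporter. Yet the written protocol mentions no allele but ∆Foxp3.ires.GFP, for spleen as for lung. Where the ∆Foxp3 cells of the 2 tissues are compared, the tissue and the labelled allele therefore cannot be told apart. By the labels, spleen ∆Foxp3 cells also differ from spleen WT cells by the Cre and the yellow reporter. In the spleen genotype comparison these cannot be told apart from the deletion of Foxp3. The tissues were also prepared differently, since the lungs were flushed of blood, enzymatically digested and depleted of other cells on magnetic beads, while the spleens were mechanically dissociated. No source used here gives the part of Foxp3 that is deleted, and counts over the rest of the gene do not check the deletion. Whether libraries of one group are from different mice is not stated, and p-values therefore describe library-to-library spread that could be technical.

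Mitosis is driven by the kinase Cdk1 bound to A-type and B-type cyclins, and the Polo-like and Aurora kinases act beside it. Condensins compact the chromosomes, kinesin motors and microtubule proteins build the spindle, and the kinetochore couples chromosomes to it. The spindle checkpoint holds division until every kinetochore is attached, after which Cdc20 and the anaphase-promoting complex start chromosome separation. The messenger RNAs of most such genes are scarce in resting lymphocytes and abundant in dividing ones, in which transcription peaks late in the cell cycle. A bulk library cannot tell more dividing cells apart from more of these transcripts in each cell, and this holds for every value given here.

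Library totals ran from 3958892 to 9025150 counts, and 3 counts in a library corresponded to 0.332 to 0.758 CPM (counts scaled to a common library size by the TMM method). The targeted gene, Foxp3, stood at 158, 113 and 225 CPM in spleen ∆Foxp3 and at 1021, 986 and 1090.4 CPM in spleen WT. In lung it stood at 467, 383 and 188 CPM in ∆Foxp3 and at 1411, 1354 and 1321 CPM in WT, so every ∆Foxp3 library was below every WT library. All 6 markers of T cell and Treg identity, which were Cd3e, Cd4, Trbc1, Trbc2, Foxp3 and Il2ra, were detected in every group. Their sum, which includes Foxp3, was lower in ∆Foxp3 without overlap. It ran from 3094 to 3505 CPM in spleen ∆Foxp3 and 4979 to 5416 CPM in spleen WT. In lung it ran from 3130 to 3728 CPM in ∆Foxp3 and 5036 to 5183 CPM in WT. At an adjusted p under 0.05, Trbc1 and Trbc2 were lower in both tissues and Cd3e and Il2ra in spleen, while Cd4 was higher in both. Ighm, the heavy chain gene of immunoglobulin M, ran from 50.3 to 133 CPM in spleen ∆Foxp3, from 1082 to 1237 CPM in spleen WT, from 109 to 229.6 CPM in lung ∆Foxp3 and from 1876 to 1929.6 CPM in lung WT, while the plasma cell marker Mzb1 was at 0 in all 12 libraries. Marker lists of 8 other cell types were summed, and 3 sums were lower in ∆Foxp3 than in WT without overlap in both tissues. These were 5 endothelial markers (led by Pecam1, with 89.0 to 144 CPM in ∆Foxp3 and 268 to 328 CPM in WT over both tissues), 5 thymocyte markers (led by Cd1d1, 21.6 to 42.8 CPM in ∆Foxp3 and 61.9 to 101 CPM in WT) and 5 of lung epithelium (led by Epcam or Scgb1a1, 7.16 to 20.4 CPM in ∆Foxp3 and 21.2 to 202 CPM in WT). Against that sum, the epithelial gene Cdh1 was called higher in ∆Foxp3, at 0 to 2.00 CPM in spleen ∆Foxp3 against 0 in spleen WT (adjusted p = 0.0293) and at 1.78 to 6.43 CPM in lung ∆Foxp3 against 0 to 0.258 CPM in lung WT (adjusted p = 0.0226). The endothelial and thymocyte sums were nearly all Pecam1 and Cd1d1, so they follow those genes rather than the lists. In spleen WT, Pecam1 averaged 304 CPM while 4 endothelial markers stayed under 1 CPM. Cd1d1 averaged 98.7 CPM there while 3 thymocyte markers stayed under 1 CPM. The endothelial marker Cldn5 was at 0 in both spleen groups, the thymocyte marker Rag2 was at 0 there too, and Rag1 was at 0 in both lung groups. The sum of 8 erythroid and platelet markers, led by Hbb-bs, ran from 12.2 to 395 CPM in spleen ∆Foxp3, from 9.06 to 16.5 CPM in spleen WT, from 1.18 to 406 CPM in lung ∆Foxp3 and from 1966 to 4879 CPM in lung WT. Myeloid markers (8, led by Ctss) ran from 167 to 472 CPM in ∆Foxp3 and from 253 to 519 CPM in WT, without overlap in lung alone. Within that list, the dendritic cell marker Xcr1 was called higher in ∆Foxp3 in both tissues, at 3.70 to 6.71 CPM in spleen ∆Foxp3 against 0 to 0.614 CPM in spleen WT (adjusted p = 0.0014) and at 8.67 to 15.0 CPM in lung ∆Foxp3 against 0.643 to 2.84 CPM in lung WT (adjusted p = 0.0104). Itgax had 0.870 to 3.82 CPM in spleen ∆Foxp3 and was at 0 in spleen WT (adjusted p = 0.0184). The macrophage genes Csf1r and C1qa were highest in spleen ∆Foxp3 1, at 109 and 51.5 CPM. The sums of 6 CD8 T and NK cell markers stayed at or under 53.8 CPM, those of 6 granulocyte and mast cell markers at or under 24.4 CPM and those of 5 fibroblast markers at or under 5.49 CPM. Their part in the results was not tested. Earlier results singled out 3 libraries that stand apart. These were the first spleen WT library (spleen WT 1), the first lung WT library (lung WT 1) and the last lung ∆Foxp3 library (lung ∆Foxp3 3). By chi-square per degree of freedom, spleen WT 1 differed from spleen WT 2 by 36.6 and from spleen WT 3 by 40.4. Spleen WT 2 and spleen WT 3 differed by 6.84. Spleen WT 1 also had the largest total, 9025150 counts, and whether depth contributed was not tested. Spleen ∆Foxp3 3, which is not among the 3, differed from spleen ∆Foxp3 2 by 35.7 and from spleen ∆Foxp3 1 by 18.6. Spleen ∆Foxp3 1 and spleen ∆Foxp3 2 differed by 15.4. Within the lung groups, gene detection was highest in lung WT 1 (22981) and in lung ∆Foxp3 3 (23649).

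The mitosis genes were scarce in spleen WT Treg and abundant in ∆Foxp3 Treg of both tissues, with lung WT Treg in between. Summed over the 58 genes, they took 1.03%, 1.09% and 0.517% of the counts in the spleen ∆Foxp3 libraries and 0.227%, 0.203% and 0.214% in the spleen WT libraries. In lung they took 0.649%, 0.977% and 0.761% in ∆Foxp3 and 0.504%, 0.479% and 0.640% in WT. The ∆Foxp3 and WT libraries did not overlap in either tissue. Much of the WT sum came from Smc4 and Cdc25b, which are described apart further on. Without them, a choice made after seeing the data, the 56 others averaged 7932 ± 3017 CPM in spleen ∆Foxp3, 854 ± 103 CPM in spleen WT, 7167 ± 1494 CPM in lung ∆Foxp3 and 3740 ± 901 CPM in lung WT (SD, n = 3 each).

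**Figure D1:**
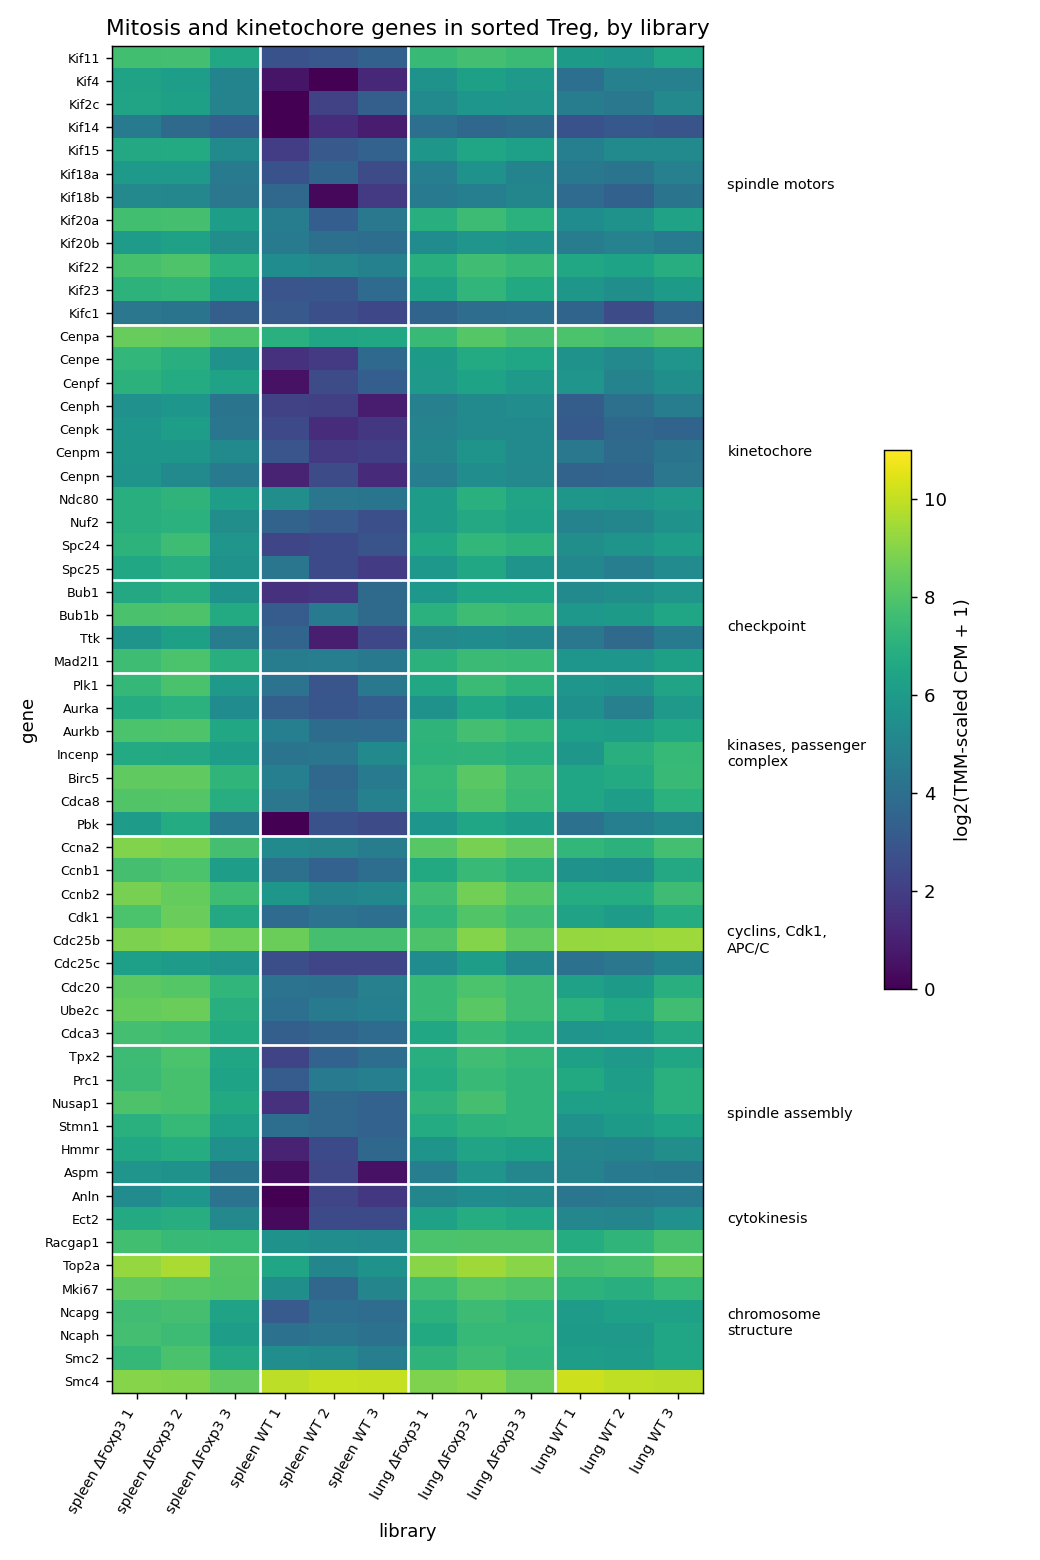
Level of each of the 58 genes (rows, grouped by role) in each of the 12 libraries (columns, in 4 groups of 3 separated by white lines), coloured by log2 of TMM-scaled CPM plus 1. The 3 spleen WT columns are the darkest in most rows, while Smc4 in the bottom row is brightest in the 6 WT columns, at 941 to 1155 CPM, and dimmer in the 6 ∆Foxp3 columns, at 325 to 522 CPM.

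The group means fell in the same order in most of the genes. Spleen ∆Foxp3 was highest, followed by lung ∆Foxp3, lung WT and spleen WT, in 46 of the 58. In 8 more, lung ∆Foxp3 was the highest and spleen ∆Foxp3 next, with lung WT after them and spleen WT lowest. The other 4, each with an order of its own, were Cenpa, Incenp, Cdc25b and Smc4.

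The genes moved together within groups as well as between them. Spleen ∆Foxp3 3 was the lowest library of its group for 58 of 58 genes, with a median log2 ratio of −1.18 to the mean of the others. Its 58-gene share, 0.517%, was still above that of all 3 spleen WT libraries. In lung ∆Foxp3, library 2 was the highest for 51 genes and library 1 the lowest for 51. In lung WT, library 3 was the highest for 48 genes. In spleen WT, where many genes had few counts, no library led or trailed in this way, and the highest library was spleen WT 1 for 26 genes, spleen WT 2 for 14 and spleen WT 3 for 18.

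The starts of these genes also share letters that the choice of genes did not use. Promoters of late cell cycle genes are known to hold a cell cycle genes homology region (CHR), bound by the DREAM and MuvB complexes, downstream of CCAAT boxes bound by NF-Y. Promoter windows from RefSeq (build GRCm38.p6), from 250 bases before to 50 after a start of transcription, were held for 48 of the 58 genes, in 52 windows. They were searched on both strands for the CHR letters TTTGAA and TTCGAA, for CCAAT, for the E2F letters TTCCCGC or TTCGCGC, for their variants TTGCCGC or TTGGCGC, and for the forkhead letters TGTTTAC. A site that reads the same on both strands was counted at 1 position, and matches of different motifs were allowed to share bases. The sequences that follow are those of the genes with a CHR match and the largest log2 fold changes in spleen, from Kif4 to Kif14, and of Cdc25b, which was added for its divergent values. Each is written 5′ to 3′ on the gene's strand, with the CHR and CCAAT letters of either orientation in capitals.
Kif4 (chrX:100625965-100626114, + strand): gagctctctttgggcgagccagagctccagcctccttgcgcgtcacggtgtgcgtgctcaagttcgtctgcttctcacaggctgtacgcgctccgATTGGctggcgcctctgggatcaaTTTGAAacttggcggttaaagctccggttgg
Ect2 (chr3:27153805-27153954, - strand): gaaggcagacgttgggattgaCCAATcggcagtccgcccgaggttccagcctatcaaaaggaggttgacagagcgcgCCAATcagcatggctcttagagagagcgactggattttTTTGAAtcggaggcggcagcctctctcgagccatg
Aspm (chr1:139454673-139454822, + strand): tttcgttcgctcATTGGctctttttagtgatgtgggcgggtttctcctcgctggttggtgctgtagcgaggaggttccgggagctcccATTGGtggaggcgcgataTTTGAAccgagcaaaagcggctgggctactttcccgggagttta
Cenpf (chr1:189688037-189688186, - strand): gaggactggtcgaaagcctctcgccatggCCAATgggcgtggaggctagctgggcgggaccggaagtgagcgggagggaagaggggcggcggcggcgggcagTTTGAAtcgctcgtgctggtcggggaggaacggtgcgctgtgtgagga
Kif11 (chr19:37376282-37376431, + strand): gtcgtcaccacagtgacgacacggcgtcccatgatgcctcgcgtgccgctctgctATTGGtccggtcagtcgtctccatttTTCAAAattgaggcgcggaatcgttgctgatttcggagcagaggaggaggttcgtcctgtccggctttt
Kif14 (chr1:136467598-136467897, + strand): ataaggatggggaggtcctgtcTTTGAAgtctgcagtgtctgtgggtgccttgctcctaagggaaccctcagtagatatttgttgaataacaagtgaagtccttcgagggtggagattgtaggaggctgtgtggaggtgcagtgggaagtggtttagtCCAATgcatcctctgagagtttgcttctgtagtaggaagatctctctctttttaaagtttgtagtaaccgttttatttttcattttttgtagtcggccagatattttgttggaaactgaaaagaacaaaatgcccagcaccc
Cdc25b (chr2:131186848-131186997, + strand): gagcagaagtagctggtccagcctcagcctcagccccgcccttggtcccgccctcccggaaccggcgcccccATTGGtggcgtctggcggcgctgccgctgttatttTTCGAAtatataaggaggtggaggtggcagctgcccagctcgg

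All but the Kif14 sequence run from 100 bases before to 50 after the start and hold the CHR close to it, with its first base at 20 in Kif4, 16 in Ect2, 7 in Aspm, 3 in Cenpf, −19 in Kif11 and 8 in Cdc25b, counted from the start of transcription as 1. The Kif14 sequence is the whole window of 300 bases, because its match lies at −228. That window lies inside the annotated gene, which begins at chr1:136466343. The windows of Kif4, Kif2c, Cdca3, Cdca8 and Cenpm, and all but the first window of Cenpk, lie inside their genes too. Whether these windows are promoters in use was not tested. A CHR match was present in 76.9% of the 52 windows of the mitosis genes and in 19.2% of all 32851 windows. CCAAT was present in 78.8% of the mitosis windows and 37.4% of all windows, and both motifs in 67.3% and 7.52%. For the E2F letters the shares were 26.9% and 9.57%, and for the forkhead letters they were 5.77% and 3.65%. The further kinetochore and spindle genes listed below had a CHR match in 46.4% and 58.8% of their windows. CCAAT was present in 60.7% and 61.8% of those windows, both motifs in 28.6% and 41.2%, and E2F letters in 28.6% and 20.6%. In the 35 mitosis windows with both motifs, the nearest CHR and CCAAT matches lay a median of 28 bases apart.

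**Figure D2:**
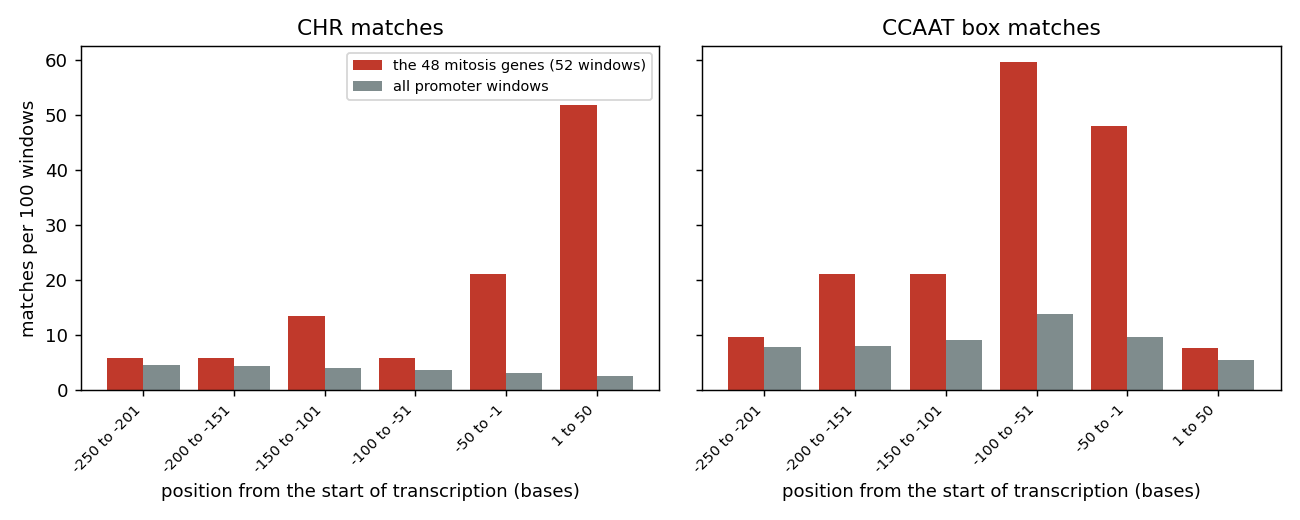
Matches of the CHR (left) and of the CCAAT box (right) per 100 promoter windows, in bins of 50 bases counted from the start of transcription, for the 52 windows of the mitosis genes (red) and all 32851 windows (grey). CHR matches of the mitosis genes peak in the 50 bases after the start, at 51.9 per 100 windows against 2.52 in all windows, and CCAAT matches between 100 and 51 bases before it, at 59.6 against 13.8.

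The 38 genes with a CHR match had a median log2 fold change of 3.55 in spleen, with a range of 0.74 to 6.44. The 10 genes with a window but no match (Birc5, Ccnb1, Cenpe, Cenph, Cenpk, Kif18a, Mad2l1, Ncaph, Nuf2 and Nusap1) had a median of 3.68, with a range of 2.76 to 4.59. The remaining genes, Smc4 and Incenp among them, had no window.

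In spleen, 57 of the 58 genes rose in ∆Foxp3 Treg and Smc4 fell, at an adjusted p under 0.05 (edgeR quasi-likelihood test with Benjamini-Hochberg adjustment over all 13295 genes). Over all genes 14.1% were called higher and 12.5% lower. The median log2 fold change of the 58 was 3.57, and that of all genes was −0.02. For 57 genes the 3 ∆Foxp3 libraries lay above the 3 WT libraries and for Smc4 below them, where 18.6% of all genes lay wholly above and 19.5% wholly below. In 44 genes the fold change was above 8. The count of 57 was the same without the 3 libraries that stand apart, and also without spleen ∆Foxp3 3. With any single library left out it ran from 54 to 57, and the calls over all genes from 2711 to 3574.

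In lung the direction was mostly the same, at a lower median. There 24 genes rose in ∆Foxp3 Treg, Smc4 and Cdc25b fell, and 32 did not pass the test, with 20.2% of all genes called, 9.74% higher and 10.5% lower. At an unadjusted p under 0.05, 37 of the 58 passed, and 34% of all genes did. The median log2 fold change of the 58 was 1.02, and that of all genes −0.01. In 46 genes the ∆Foxp3 libraries lay above the WT libraries, in 2 below, and in 10 they overlapped, where 23.2% of all genes lay wholly above and 22.2% below. In 32 genes the fold change was above 2 and in 0 above 8. The count of 24 rests on single libraries. Leaving out lung ∆Foxp3 2 took it to 5 and lung ∆Foxp3 3 to 8, leaving out lung WT 1 or lung WT 2 took it to 6 in either case, and dropping the 3 odd libraries together took it to 4. The calls over all genes fell in those fits as well, to between 9.66% and 12.1%. The median log2 fold change stayed between 0.90 and 1.24 when any library was left out. A fit on the lung groups alone called 46 genes higher, as did limma, and over all genes they called 32.8% and 34.6%. Of the genes called in lung, Kif11, Spc24, Bub1b, Mad2l1, Cdca8, Ccna2, Cenpk, Smc4 and Cdc25b were followed singly as libraries were left out. Among these, the calls of Kif11, Mad2l1, Cenpk and Smc4 were kept without any single library, at adjusted p of up to 0.0407. The other lung calls were not checked gene by gene.

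**Figure D3:**
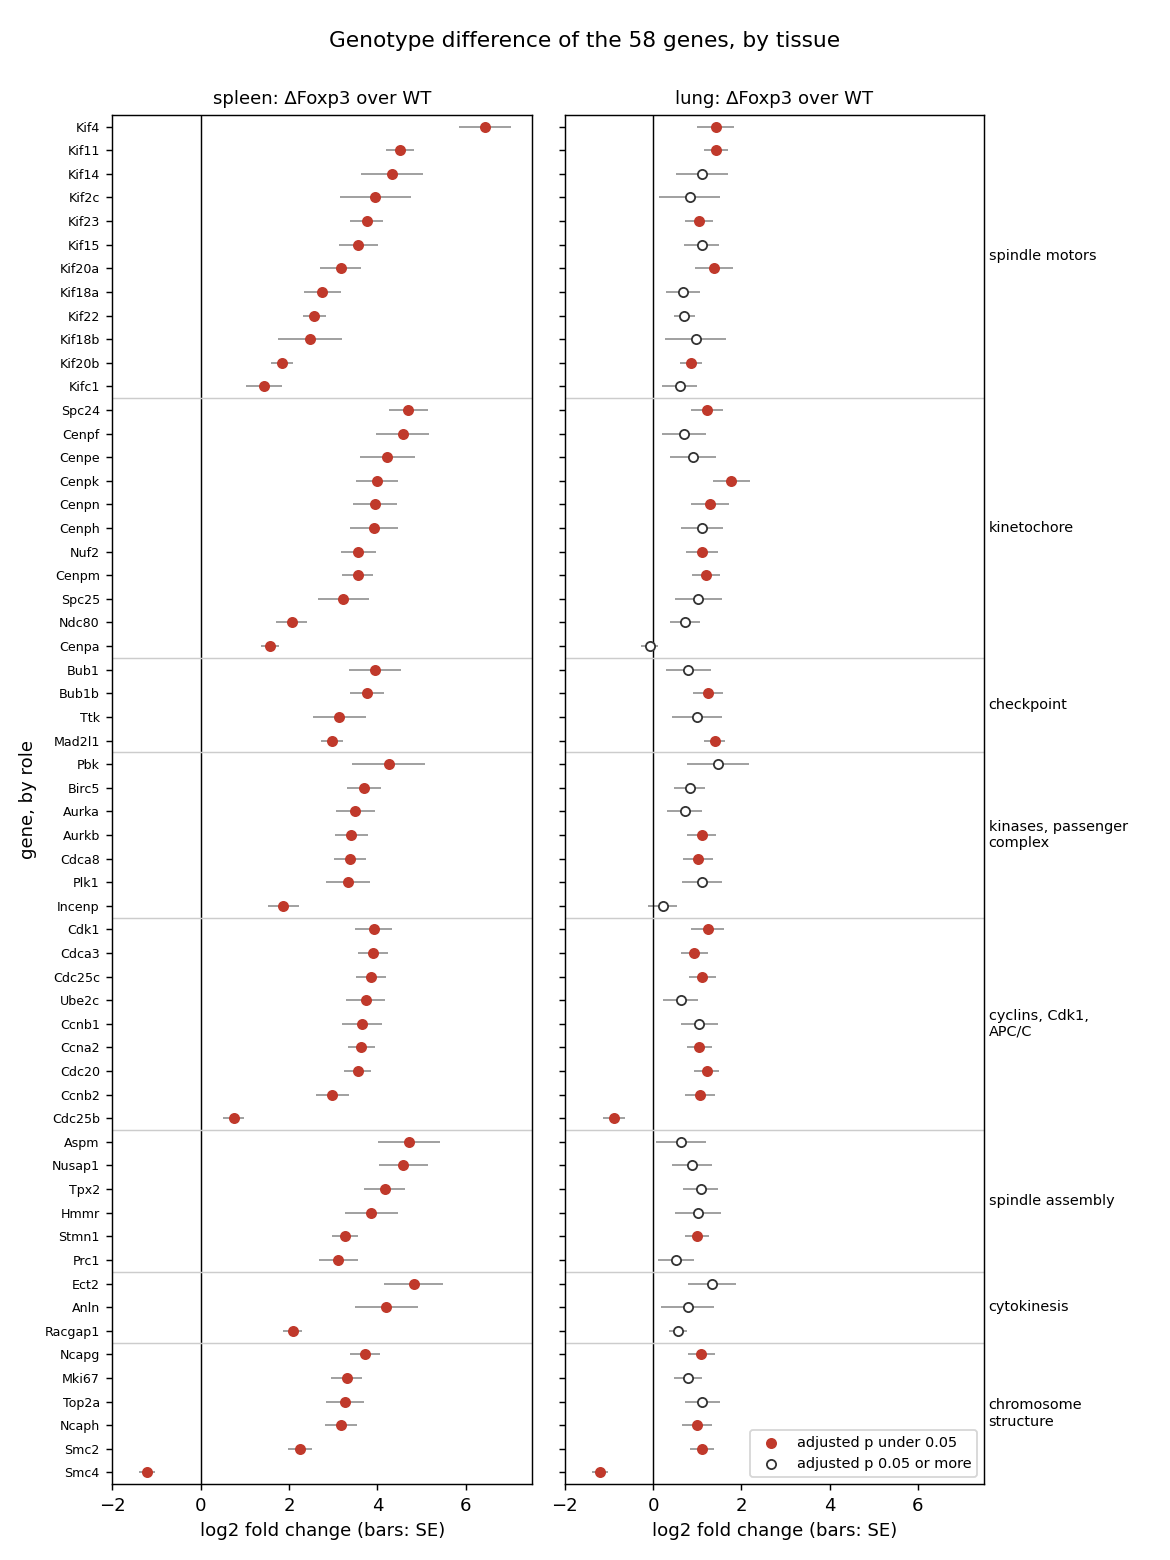
Log2 fold change of ∆Foxp3 over WT (horizontal axis; bars are standard errors) for the 58 genes (rows, grouped by role) in spleen (left) and lung (right), with filled points for an adjusted p under 0.05. In spleen 57 points are filled to the right of 0, up to 6.44 for Kif4, while in lung 24 are filled to the right and the highest is Cenpk at 1.77. Smc4 lies left of 0 in both tissues and Cdc25b in lung.

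The kinesins are motors that walk along or shorten microtubules, and all 12 rose in spleen ∆Foxp3 Treg, with log2 fold changes of 1.44 (Kifc1, which gathers microtubule minus ends) to 6.44 (Kif4, a motor on chromosome arms and the central spindle). In lung 5 of the 12 rose. Kif11, the motor that pushes the spindle poles apart (chr19:37376403-37421859, mm10), had 205, 206 and 95.8 CPM in spleen ∆Foxp3 and 5.76, 6.93 and 9.52 CPM in spleen WT. Its lung values were 168, 211 and 179.6 CPM in ∆Foxp3 and 63.7, 54.7 and 87.5 CPM in WT. Every ∆Foxp3 library was above every WT library of its tissue, by a log2 fold change of 4.51 ± 0.32 in spleen (SE; adjusted p = 1.15e-06) and 1.44 ± 0.27 in lung (adjusted p = 0.00222).

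Kif4 had the largest change of all 58 genes in spleen. Its level was 78.7, 68.9 and 30.4 CPM in spleen ∆Foxp3, against 0.554, 0 and 1.38 CPM in spleen WT, where the value of 0 allows up to 0.559 CPM. The groups stood far apart, at a log2 fold change of 6.44 ± 0.58 (adjusted p = 6.56e-06), but the WT level rests on few counts. In lung Kif4 had 47.5, 75.4 and 59.6 CPM in ∆Foxp3 and 15.2, 26.6 and 26.4 CPM in WT, again with no overlap (1.42 ± 0.41, adjusted p = 0.0269). Kif22, a chromosome arm motor and the most abundant of the 12, had 221, 250.5 and 131 CPM in spleen ∆Foxp3 and 40.3, 33.6 and 27.2 CPM in spleen WT. Its lung levels of 123, 198 and 157 CPM in ∆Foxp3 and 94.5, 81.5 and 116 CPM in WT also did not overlap, but the difference there missed the threshold (0.71 ± 0.24, adjusted p = 0.0534). Kif20a, which carries the passenger complex to the midzone, and Kif23, a subunit of centralspindlin, rose in both tissues. Kif20b, a further midzone kinesin, rose in both (1.84 in spleen and 0.86 in lung), while Kif15, a spindle motor that works beside Kif11, and Kif18a and Kif18b, which limit microtubule growth, rose in spleen alone by the test. Kif2c, a microtubule depolymerase, and Kif14, a midbody motor, were at 0 counts in spleen WT 1, which allows up to 0.332 CPM, and did not pass the test in lung.

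Of the 11 centromere and kinetochore genes, all rose in spleen and 5 in lung. The Ndc80 complex is the rod that grips the microtubule, and its 4 subunits Ndc80, Nuf2, Spc24 and Spc25 rose in spleen by log2 fold changes of 2.06, 3.57, 4.70 and 3.23. In lung only Nuf2 (1.10 ± 0.36, adjusted p = 0.0459) and Spc24 passed the test. Spc24 stood at 135, 194 and 52.1 CPM in spleen ∆Foxp3 and 3.88, 4.62 and 6.14 CPM in spleen WT. In lung it had 95.8, 156 and 134 CPM in ∆Foxp3 and 42.9, 51.3 and 70.9 CPM in WT. The genotypes did not overlap in either tissue (4.70 ± 0.45, adjusted p = 1.12e-05 in spleen; 1.22 ± 0.37, adjusted p = 0.034 in lung). Its lung call was lost without lung ∆Foxp3 2, lung ∆Foxp3 3, lung WT 1 or lung WT 2, with an adjusted p of up to 0.114. Per kilobase of exon, Spc24 was the most abundant of the 4 subunits in spleen ∆Foxp3, at 49.4 ± 27.7 CPM per kb. Spc25 followed at 26.6 ± 10.4, Ndc80 at 17.2 ± 5.8 and Nuf2 at 15.1 ± 7.4 (SD, n = 3). Those SDs hold shifts of whole libraries that the genes share, so they do not test the order. The order also depends on the annotated exon lengths, 2573 nt for Spc24, 3188 for Spc25, 6493 for Ndc80 and 6341 for Nuf2.

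Cenph, Cenpk, Cenpm and Cenpn belong to the inner network that sits on the centromere through the cell cycle. They rose in spleen by log2 fold changes of 3.93, 3.99, 3.55 and 3.95. Cenpk had the largest lung change of all 58 genes, with 29.6, 36.7 and 37.8 CPM in lung ∆Foxp3 against 7.72, 12.1 and 10.7 CPM in lung WT. Those libraries did not overlap (1.77 ± 0.42, adjusted p = 0.00877). Cenpe, a kinetochore motor, and Cenpf, a large kinetochore protein, rose in spleen (4.23 and 4.57) and had log2 fold changes of 0.90 and 0.70 in lung that did not pass the test.

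Cenpa, the histone H3 variant that marks the centromere (chr5:30666777-30674830), behaved otherwise. It had 346, 332 and 234 CPM in spleen ∆Foxp3 and 124, 88.4 and 94.1 CPM in spleen WT, which did not overlap (1.57 ± 0.20, adjusted p = 6.36e-05). In lung it had 175, 273 and 215 CPM in ∆Foxp3 and 232, 206 and 263 CPM in WT. The lung libraries of the genotypes were interleaved, and the log2 fold change was −0.08 ± 0.20 (adjusted p = 0.819; 95% interval −0.47 to 0.31).

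All 4 checkpoint genes rose in spleen, and Bub1b and Mad2l1 also in lung. Bub1b encodes BubR1 and Mad2l1 encodes Mad2, parts of the complex that keeps Cdc20 inactive. Mad2l1 had 192, 237 and 117 CPM in spleen ∆Foxp3 and 23.6, 25.1 and 21.0 CPM in spleen WT, and 132, 182 and 169 CPM in lung ∆Foxp3 and 54.2, 53.6 and 75.4 CPM in lung WT. With no overlap in either tissue, its lung change had the smallest adjusted p of the genes that rose there (1.39 ± 0.23, adjusted p = 0.000955; 2.97 ± 0.25 in spleen, adjusted p = 3.23e-06). Bub1b stood at 231, 245 and 106 CPM in spleen ∆Foxp3 and 8.31, 22.0 and 13.1 CPM in spleen WT, and at 131, 192 and 173 CPM in lung ∆Foxp3 and 57.0, 62.2 and 88.2 CPM in lung WT. It too was above WT in every ∆Foxp3 library (3.76 ± 0.38, adjusted p = 1.69e-05 in spleen; 1.25 ± 0.34, adjusted p = 0.0209 in lung), but its lung call was lost without any of the same 4 libraries as that of Spc24 (adjusted p of up to 0.0776). The checkpoint kinases Bub1 and Ttk had log2 fold changes of 0.80 and 0.99 in lung, neither past the test.

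The 7 mitotic kinases and subunits of the chromosomal passenger complex all rose in spleen, and Aurkb and Cdca8 also in lung. The passenger complex corrects faulty attachments and guides cytokinesis, with Aurkb as its kinase and Incenp, Birc5 (survivin) and Cdca8 (borealin) as its scaffold and targeting subunits. Birc5 was counted at 313, 313 and 148 CPM in spleen ∆Foxp3 and 25.8, 11.7 and 21.2 CPM in spleen WT, a log2 fold change of 3.70 ± 0.39 (adjusted p = 2.38e-05). In lung, 165, 287 and 194 CPM in ∆Foxp3 and 88.1, 105 and 169 CPM in WT overlapped by a narrow margin (0.83 ± 0.35, adjusted p = 0.108). Cdca8 had 154, 254 and 177 CPM in lung ∆Foxp3 and 86.8, 69.6 and 131 CPM in lung WT, with no overlap (1.02 ± 0.34, adjusted p = 0.048). This call was lost without those 4 libraries in turn, and also without spleen ∆Foxp3 1, spleen ∆Foxp3 2 or spleen WT 1, with an adjusted p of up to 0.165. The kinases Plk1, Aurka and Pbk rose in spleen (3.33, 3.50 and 4.25) and missed the threshold in lung (1.11, 0.72 and 1.47).

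Incenp stood apart from its partners. It had 104, 97.3 and 70.1 CPM in spleen ∆Foxp3 and 18.1, 19.0 and 37.3 CPM in spleen WT, a log2 fold change of 1.87 ± 0.35 (adjusted p = 0.00173). In lung the ∆Foxp3 libraries, at 138, 143 and 120.3 CPM, lay inside the spread of the WT libraries, at 56.4, 124 and 164 CPM. The lung difference was 0.22 ± 0.34 (adjusted p = 0.704; 95% interval −0.44 to 0.88). Per kilobase of exon, the ratio of Incenp to Aurkb was 0.263 to 0.513 in spleen ∆Foxp3 and 0.470 to 1.88 in spleen WT, and 0.469 to 0.670 in lung ∆Foxp3 and 0.533 to 1.19 in lung WT, ranges that overlap.

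Cyclins, Cdk1, its phosphatases and the anaphase-promoting complex genes made up 9 of the 58. All 9 rose in spleen and 6 in lung (Ccna2, Ccnb2, Cdk1, Cdc25c, Cdc20 and Cdca3), while Cdc25b fell in lung. Ccna2, cyclin A, was at 482, 440.4 and 212 CPM in spleen ∆Foxp3 and 36.2, 30.8 and 24.0 CPM in spleen WT, and at 280.4, 429 and 331 CPM in lung ∆Foxp3 and 157, 134 and 211 CPM in lung WT. No ∆Foxp3 library fell within the range of its WT group (3.63 ± 0.31, adjusted p = 4.32e-06 in spleen; 1.05 ± 0.28, adjusted p = 0.0168 in lung), although its lung call was lost without lung ∆Foxp3 2, lung WT 1 or lung WT 2 (adjusted p of up to 0.0738). Cdk1 rose by 3.92 ± 0.42 in spleen and 1.24 ± 0.37 in lung on the log2 scale, and the cyclin B gene Ccnb2 by 2.98 ± 0.37 and 1.06 ± 0.35. Ccnb1, the other cyclin B gene, and Ube2c, the ubiquitin-conjugating partner of the anaphase-promoting complex, rose in spleen (3.65 and 3.74) and did not pass in lung (1.05 and 0.63). Cdca3 was called in lung although 1 WT library, at 99.7 CPM, lay above the lowest ∆Foxp3 library, at 95.5 CPM.

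Cdc25b, one of the phosphatases that switch Cdk1 on (chr2:131186949-131198497), went opposite ways in the tissues. It had 459, 491 and 381 CPM in spleen ∆Foxp3 and 363, 215 and 217 CPM in spleen WT, which placed it higher in ∆Foxp3 by 0.74 ± 0.25 (adjusted p = 0.0372). In lung it had 239.5, 495 and 309 CPM in ∆Foxp3 and 611, 630.3 and 676 CPM in WT, which placed it lower in ∆Foxp3 (−0.88 ± 0.25, adjusted p = 0.0222). In both tissues the libraries of the genotypes did not overlap. The spleen call was lost without spleen WT 2, spleen WT 3, spleen ∆Foxp3 1 or spleen ∆Foxp3 2, with an adjusted p of up to 0.135, and the lung call without any lung library but ∆Foxp3 2, with an adjusted p of up to 0.112. Its relative Cdc25c, with the same substrate, rose in both tissues (3.86 ± 0.34 in spleen and 1.12 ± 0.30 in lung).

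The 6 spindle assembly and microtubule genes rose in spleen, by log2 fold changes of 3.11 (Prc1, which bundles midzone microtubules) to 4.72 (Aspm, at spindle poles), and only Stmn1 rose in lung (1.00 ± 0.27, adjusted p = 0.0177). Stmn1 encodes stathmin, which sequesters tubulin. Nusap1, a spindle microtubule protein, had 240.1, 224 and 100.4 CPM in spleen ∆Foxp3 and 2.00, 12.1 and 10.1 CPM in spleen WT (4.59 ± 0.55, adjusted p = 9.25e-05). In lung its 142, 213 and 148 CPM in ∆Foxp3 lay above the 72.2, 74.8 and 125 CPM in WT, without passing the test (0.88 ± 0.46, adjusted p = 0.201). Prc1 overlapped in lung, with 107, 171 and 146 CPM in ∆Foxp3 and 102, 69.1 and 125 CPM in WT (0.52 ± 0.40, adjusted p = 0.401). Tpx2, which activates Aurora A, and Hmmr, a microtubule-binding spindle protein, rose in spleen (4.16 and 3.86) and had log2 fold changes of 1.08 and 1.02 in lung.

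Cytokinesis, the final cut between daughter cells, is set up by Racgap1 and Ect2, which switch on RhoA, and by the scaffold anillin (Anln). All 3 rose in spleen and none passed in lung, although the lung libraries of the genotypes did not overlap in any of them. Ect2 had 105, 113 and 35.1 CPM in spleen ∆Foxp3 and 0.222, 4.62 and 4.61 CPM in spleen WT (4.82 ± 0.66, adjusted p = 0.000251), and 78.5, 110.5 and 92.0 CPM in lung ∆Foxp3 and 33.0, 31.5 and 46.5 CPM in lung WT (1.34 ± 0.54, adjusted p = 0.101). Racgap1 had 206, 171 and 163 CPM in spleen ∆Foxp3 and 47.6, 41.1 and 38.7 CPM in spleen WT (2.08 ± 0.21, adjusted p = 1.16e-05). It was the steadiest of the genes in lung ∆Foxp3, at 236, 242 and 240.1 CPM, against 111, 148 and 224 CPM in lung WT (0.57 ± 0.20, adjusted p = 0.0629).

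Of the 6 genes of chromosome structure, 5 rose in spleen, 3 in lung (Ncapg, Ncaph and Smc2), and Smc4 fell in both. Top2a, the topoisomerase that untangles sister chromatids, was at 614, 767 and 266 CPM in spleen ∆Foxp3 and 89.4, 32.2 and 47.5 CPM in spleen WT (3.27 ± 0.43, adjusted p = 0.000187). Its lung levels of 525, 682 and 526 CPM in ∆Foxp3 and 212, 230.3 and 358 CPM in WT did not overlap either, at 1.11 ± 0.40 (adjusted p = 0.0685). Mki67, the gene of the proliferation marker Ki-67, had 318, 277 and 259 CPM in spleen ∆Foxp3 and 43.0, 11.6 and 31.2 CPM in spleen WT. Its lung levels were 193, 284 and 252 CPM in ∆Foxp3 and 138, 117 and 165 CPM in WT, a log2 fold change of 0.80 ± 0.32 that did not pass (adjusted p = 0.0941), beside 3.30 ± 0.35 in spleen.

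Smc4 is the exception among the 58. With Smc2 it forms the paired motor subunits of the condensins (chr3:69004738-69034623). It had 511, 481 and 325 CPM in spleen ∆Foxp3 and 962, 1071 and 1053 CPM in spleen WT, and 462, 522 and 348 CPM in lung ∆Foxp3 and 1155, 990.3 and 941 CPM in lung WT. All 6 ∆Foxp3 libraries lay below all 6 WT libraries. The spleen difference was −1.23 ± 0.18 on the log2 scale (adjusted p = 0.000203) and the lung difference −1.21 ± 0.18 (adjusted p = 0.00041). Its partners went the other way. Smc2 had 159.9, 232 and 98.5 CPM in spleen ∆Foxp3 and 40.5, 37.2 and 25.3 CPM in spleen WT (2.25 ± 0.28), and 139.6, 194 and 153 CPM in lung ∆Foxp3 and 71.4, 67.3 and 87.3 CPM in lung WT (1.11 ± 0.27), with no overlap. Ncapg and Ncaph, the condensin I subunits among the 58, rose by 3.72 ± 0.35 and 3.17 ± 0.36 in spleen and 1.09 ± 0.31 and 1.00 ± 0.33 in lung. Per kilobase of exon, Smc4 exceeded Smc2 by 2.18 to 3.47 times in spleen ∆Foxp3, 24.99 to 43.7 times in spleen WT, 2.38 to 3.48 times in lung ∆Foxp3 and 11.3 to 17.0 times in lung WT. The annotation also places Mir15b and Mir16-2 inside the Smc4 gene on its strand, at chr3:69009772-69009835 and chr3:69009902-69009996.

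**Figure D4:**
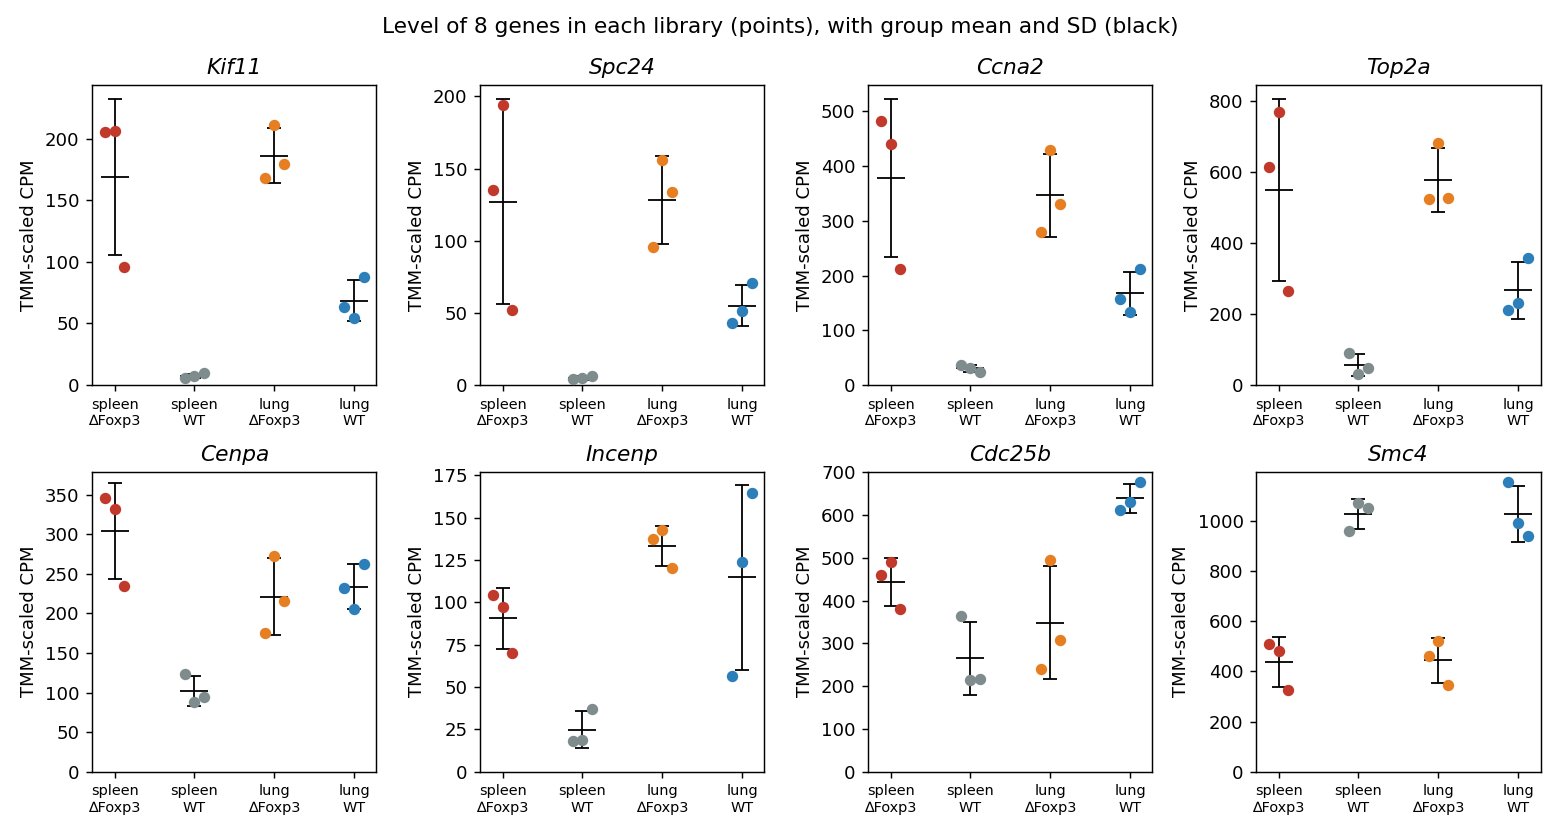
TMM-scaled CPM (vertical axes, from 0) of 8 genes in each library (points), with the group mean and SD in black, for spleen ∆Foxp3, spleen WT, lung ∆Foxp3 and lung WT. Kif11, Spc24, Ccna2 and Top2a show the usual order with spleen WT lowest, Cenpa and Incenp overlap between the genotypes in lung, Cdc25b is highest in lung WT, at 611 to 676 CPM, and Smc4 is high in both WT groups.

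The tissue comparison asked how Treg of the lung differ from those of the spleen within a genotype. In WT Treg, 48 of the 58 genes were higher in lung and 0 lower, where 4.13% of all genes were called, 3.1% higher and 1.03% lower. The median log2 fold change was 2.30, against −0.00 over all genes. In 55 genes the lung WT libraries lay above the spleen WT libraries, where 13.2% of all genes did. Kif4 had the largest difference, 15.2, 26.6 and 26.4 CPM in lung WT against 0.554, 0 and 1.38 CPM in spleen WT (5.06 ± 0.58, adjusted p = 0.000342). The smallest adjusted p was that of Kif11, at 63.7, 54.7 and 87.5 CPM in lung WT and 5.76, 6.93 and 9.52 CPM in spleen WT (3.22 ± 0.31, adjusted p = 7.32e-05). Racgap1 (1.92 ± 0.21), Ccna2 (2.46 ± 0.30) and Stmn1 (2.39 ± 0.29) followed, each with lung WT wholly above spleen WT. Without the 3 libraries that stand apart 37 genes were higher in lung. The lung WT libraries are also those with the high erythroid marker sum given above.

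The 10 genes not called between the WT groups were Kif2c, Kif18b, Kif20a, Kif20b, Kifc1, Ndc80, Spc25, Ttk, Pbk and Smc4. Smc4 was level, at 1155, 990.3 and 941 CPM in lung WT and 962, 1071 and 1053 CPM in spleen WT, with a log2 fold change of 0.00 ± 0.18 (95% interval −0.35 to 0.35), whose sign turned under several settings. The others had log2 fold changes of 0.53 (Kif20b) to 2.91 (Pbk). Cdc25b had its highest levels in lung WT and was above spleen WT by 1.27 ± 0.25 (adjusted p = 0.00979), a call lost without spleen WT 2 (adjusted p = 0.0519). Incenp was above it by 2.21 ± 0.36 (adjusted p = 0.00346).

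In ∆Foxp3 Treg no gene of the 58 passed the test between lung and spleen. By edgeR 0 were called, where 0.549% of all genes were called higher in lung and 0.173% lower, and DESeq2 and limma also called 0. At an unadjusted p under 0.05, 1 of the 58 and 9.18% of all genes passed. The median log2 fold change was −0.18, with 48 genes lower and 10 higher in lung, and values ran from −0.64 (Cenpf) to 0.56 (Incenp). The direction depended on single libraries, and the median was −0.48 without spleen ∆Foxp3 3, 0.01 without spleen ∆Foxp3 1 and −0.01 without lung ∆Foxp3 1. The 95% interval of the difference lay within ±1 on the log2 scale for 36 genes, and its half-width ran from 0.352 to 1.34 over the 58. The interval is not adjusted for the number of genes and is narrower than the test would give. Differences larger than the half-width could therefore also miss the threshold. Incenp, at 138, 143 and 120.3 CPM in lung ∆Foxp3 and 104, 97.3 and 70.1 CPM in spleen ∆Foxp3, and Racgap1, at 236, 242 and 240.1 CPM and 206, 171 and 163 CPM in the same groups, were the genes whose libraries did not overlap, both higher in lung, where 8.07% of all genes lay that way.

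**Figure D5:**
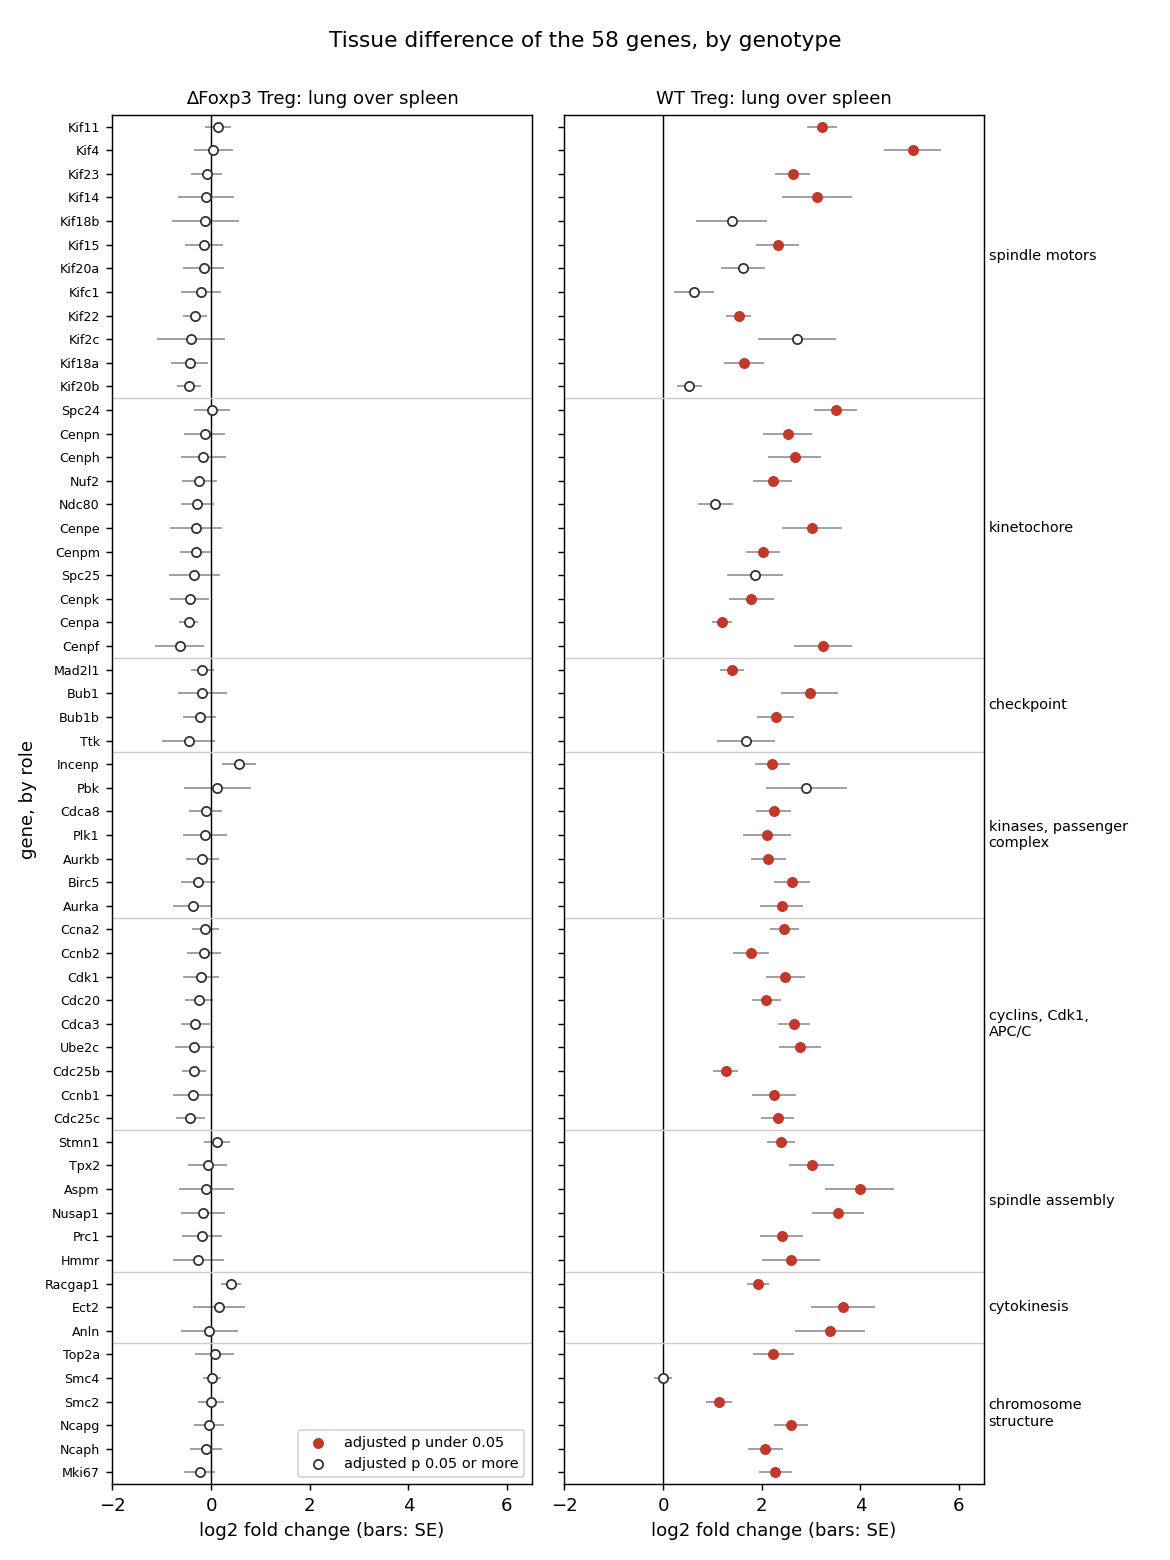
Log2 fold change of lung over spleen (horizontal axis; bars are standard errors) for the 58 genes (rows, grouped by role) in ∆Foxp3 Treg (left) and WT Treg (right), with filled points for an adjusted p under 0.05. No point is filled in ∆Foxp3, where values run from −0.64 to 0.56, and 48 are filled in WT, where they run from 0.00 (Smc4) to 5.06 (Kif4).

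Whether the genotype difference itself differed between the tissues was tested as the lung log2 fold change minus the spleen one. For 29 of the 58 genes it was called negative, a log2 fold change lower in lung than in spleen, and for 0 positive. Over all genes 0.925% were called, 0.782% negative and 0.143% positive. At an unadjusted p under 0.05, 55 of the 58 passed, against 9.26% of all genes. The median was −2.51, against −0.01 over all genes, and the spleen log2 fold change was the larger for 57 genes, all but Smc4. Called genes came from every role: 7 of 9 cyclins and Cdk1 regulators, 5 of 11 kinetochore genes, 4 of 12 kinesins, 4 of 7 kinases and passenger subunits, 3 of 6 spindle assembly genes, 3 of 6 chromosome structure genes, 2 of 4 checkpoint genes and 1 of 3 cytokinesis genes. The smallest adjusted p were those of Kif11 (−3.08 ± 0.40, adjusted p = 0.00267), Kif4 (−5.02 ± 0.71, adjusted p = 0.00521), Cdca3 (−2.97 ± 0.44, adjusted p = 0.00599) and Ccna2 (−2.58 ± 0.40, adjusted p = 0.00741). For Smc4 it was 0.02 ± 0.25 (adjusted p = 0.999; 95% interval −0.48 to 0.51), with a sign that turned under several settings.

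This count also rests on single libraries. With the 3 odd libraries dropped it was 13. Leaving out one spleen library took it to 11 (∆Foxp3 1), 13 (∆Foxp3 2) or 17 (WT 2 or WT 3), and leaving out one lung library to 7, 18 or 10 (∆Foxp3 1, 2 or 3) and to 19, 18 or 12 (WT 1, 2 or 3). DESeq2 called 44. Over all genes, leaving out any library gave 0.255% to 1.3% called. When any library was left out, the median over the 58 genes stayed between −2.82 and −2.24. The tissue and the labelled allele of ∆Foxp3 cannot be told apart here.

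Compared per kilobase of exon, the levels of the 58 genes differed widely within a group. In spleen ∆Foxp3 Treg the highest were Ccnb2, at 208 ± 80 CPM per kb, Cdc20 at 128 ± 41, Cdc25b at 119 ± 15 and Ube2c at 106 ± 54 (SD, n = 3). Spleen ∆Foxp3 3 was the lowest library for all 58 genes, so these SDs hold a shift that the genes share. They do not measure differences between genes within a library, and the order was not tested. In lung ∆Foxp3 Ccnb2 and Cdc20 led as well, at 189 ± 66 and 108 ± 18 CPM per kb. In lung WT and spleen WT the highest was Smc4, at 197 ± 22 and 197 ± 11 CPM per kb, ahead of Cdc25b at 171 ± 9 in lung WT and 71.1 ± 22.9 in spleen WT. Kif14 was the lowest in every group, at 1.44 ± 0.71 in spleen ∆Foxp3, 0.0762 ± 0.0773 in spleen WT, 1.34 ± 0.15 in lung ∆Foxp3 and 0.621 ± 0.070 CPM per kb in lung WT. The kit does not mark strand, so reads of exons that overlap a gene on the other strand cannot be assigned. Such overlaps cover 29.3% of the exon bases of Kif20a (with Cdc23), 22.8% of Ube2c (with Tnnc2), 15.1% of Kif4 (with Pdzd11) and 11.1% to 13.4% of Ncapg, Cdc25c, Ccna2 and Prc1.

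Other genes of the same machinery, from lists drawn up for this comparison, were counted in the same fit. Of 30 further kinetochore and centromere genes, 26 rose in spleen ∆Foxp3 and 0 fell, with a median log2 fold change of 2.45, and 13 rose in lung and 0 fell, where 14.1% of all genes rose in spleen and 9.74% in lung and 12.5% and 10.5% fell. The shugoshins, which guard centromeric cohesion, were among them. Sgo1 averaged 74.8 ± 28.9 CPM in spleen ∆Foxp3 and 5.88 ± 1.45 CPM in spleen WT (3.66 ± 0.31, adjusted p = 3.21e-06), and Sgo2a 29.0 ± 12.1 and 1.33 ± 0.30 CPM (4.40 ± 0.42, adjusted p = 7.55e-06). Ska1, which helps the Ndc80 complex hold microtubules, averaged 35.8 ± 11.5 CPM in spleen ∆Foxp3 and 2.38 ± 0.57 CPM in spleen WT (3.88 ± 0.37, adjusted p = 7.55e-06).

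Of 36 further spindle, midbody and mitotic entry genes, 32 rose in spleen and 17 in lung, with median log2 fold changes of 3.08 and 1.13, and 1 fell in each tissue, beside the same shares of all genes (14.1% and 9.74% higher, 12.5% and 10.5% lower). The condensin subunits Ncapg2 (4.80 ± 0.32, adjusted p = 5.32e-07) and Ncapd2 (3.06 ± 0.23, adjusted p = 1.33e-06) and the kinase Nek2 (4.44 ± 0.35, adjusted p = 2.26e-06) had the smallest adjusted p in spleen. Pttg1, which encodes securin, the inhibitor of separase, was the only gene of that list to fall. It averaged 65.2 ± 11.9 CPM in spleen ∆Foxp3 and 98.3 ± 18.8 CPM in spleen WT (−0.60 ± 0.20, adjusted p = 0.0356), and 64.8 ± 11.5 CPM in lung ∆Foxp3 and 110.3 ± 12.1 CPM in lung WT (−0.76 ± 0.20, adjusted p = 0.0142).

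Both the anaphase-promoting complex and cohesin are also in use outside mitosis. Of 16 core subunits and partners of the anaphase-promoting complex, 4 rose in spleen and 2 in lung and 0 fell, with a median log2 fold change of 0.21 in spleen. These were 25% and 12.5% of the list, near the 14.1% and 9.74% of all genes that rose. The examples with the smallest adjusted p were Anapc15 (1.29 ± 0.27, adjusted p = 0.0026), Fzr1 (1.02 ± 0.26, adjusted p = 0.00999) and Anapc5 (0.62 ± 0.16, adjusted p = 0.0105). Of 10 cohesin subunits and loaders, Rad21, Smc1a and Stag1 rose in spleen, by 0.56 to 0.70, and the loader subunit Nipbl fell in both tissues (−0.52 ± 0.17, adjusted p = 0.0355 in spleen; −0.68 ± 0.17, adjusted p = 0.0119 in lung). Its partner Mau2 fell in lung (−0.60 ± 0.19, adjusted p = 0.0409). Over all genes the shares called were 14.1% higher and 12.5% lower in spleen, and 9.74% higher and 10.5% lower in lung. The calls of Rad21, Smc1a and Stag1 were each lost when any of 3 or more libraries was left out, with adjusted p of up to 0.107, 0.119 and 0.0763.

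Of 23 transcription factors of the late cell cycle and E2F programs, 11 rose in spleen and 4 in lung, and the median log2 fold changes were 0.95 and 0.21. These were 47.8% and 17.4% of the list, beside 14.1% and 9.74% of all genes, and 2 fell in spleen and 1 in lung, beside 12.5% and 10.5% of all genes. Foxm1, an activator of mitotic genes, averaged 42.2 ± 15.9 CPM in spleen ∆Foxp3 and 5.41 ± 1.94 CPM in spleen WT (2.93 ± 0.35, adjusted p = 3.31e-05), and 47.5 ± 12.4 CPM in lung ∆Foxp3 and 18.8 ± 4.6 CPM in lung WT (1.33 ± 0.32, adjusted p = 0.0101). The repressors E2f8 (3.83 ± 0.49, adjusted p = 7.33e-05) and E2f7 (3.98 ± 0.56, adjusted p = 0.000155) rose in spleen as well. Rb1, the retinoblastoma gene that restrains E2F factors, fell in both tissues (−1.02 ± 0.23, adjusted p = 0.00489 in spleen; −0.70 ± 0.23, adjusted p = 0.0454 in lung), and E2f5 fell in spleen (−1.63 ± 0.57, adjusted p = 0.0467).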

How the data were processed

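The authors deposited raw read counts per gene, 1 column a library. Reads were aligned with STAR 2.7.3a and counted with featureCounts of Subread 2.0.0 on mm10, per the submitters' processing notes. No source used here gives the annotation or strand setting. Per the labels' protocols, each library held 1000 double-sorted cells, was amplified over 18 PCR cycles and read in pairs of 38 nt, with no molecular identifiers, so the floor of 3 counts covers counting error only. The SE of a log2 fold change is its absolute value divided by the square root of its quasi-likelihood F statistic. The 95% intervals of log2 fold changes come from that SE and a normal distribution. They are therefore narrower than the quasi-likelihood test would give, and they are not adjusted for the number of genes.

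Genes were kept by edgeR's filterByExpr, scaled by TMM and tested in 1 fit over all 12 libraries with edgeR's quasi-likelihood test (edgeR 4.0.16, limma 3.58.1, DESeq2 1.42.0, R 4.3.3), two-sided, with Benjamini-Hochberg adjustment over 13295 genes. There were 5 comparisons: genotype in each tissue, tissue in each genotype, and their interaction. All p-values adjusted in the text come from that test unless another tool is named. Errors are SD for levels and SE for log2 fold changes. The procedure was tested on simulated data. CPM per kb used GENCODE vM21 exon lengths, taken over all annotated exons of a gene together.

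The members, roles, lists and motifs were chosen with earlier results of these data known. Values in every library were given by role for the genes of highest mean CPM, and by comparison for the most extreme or lowest-p genes; from each further list, the 3 called genes of smallest adjusted p in spleen. Securin, the cohesin loader, retinoblastoma and E2f5 genes, Mki67, Smc2, the genotype values of Incenp and the other genes named beside their groups were chosen after their values were seen. Alternatives were other scalings, filters and tools, only the groups compared, a replicate block, thinned counts and libraries left out. The summed B cell marker list is not reported here.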

Additional observations from a re-analysis of the deposited data

Results flagged for a closer look

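The difference between the tissues in the genotype effect, tested as the lung log2 fold change (∆Foxp3 over WT) minus the spleen one, passed the threshold for 29 of the 58 genes, all in the negative direction (edgeR quasi-likelihood test, Benjamini-Hochberg adjustment), where 0.925% of all genes were called and 0.782% in that direction. With any single library left out, 7 to 43 of the 58 were called. Among the motors and spindle genes it was −5.02 for Kif4, −3.08 for Kif11, −1.86 for Kif22 and −3.71 for Nusap1. Among the kinetochore and checkpoint genes it was −3.48 for Spc24, −1.65 for Cenpa, −2.51 for Bub1b and −1.57 for Mad2l1. For the passenger subunits it was −2.87 for Birc5 and −2.36 for Cdca8, for the cytokinesis gene Racgap1 −1.51, and for the regulators of Cdk1 and the cell cycle −2.58 for Ccna2, −2.97 for Cdca3 and −1.62 for Cdc25b. Of the 12 fits that each left out a library, Mad2l1 lost its call in 11, Bub1b and Cdc25b in 9, Cdca8, Nusap1 and Racgap1 in 8, Kif22 in 6, Birc5 in 5 and Cenpa in 1, while Kif4, Kif11, Spc24, Ccna2 and Cdca3 were called in all of them. The labelled ∆Foxp3 allele differs between the tissues as well, so the tissue and the allele cannot be told apart.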

How the results depend on the processing

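Of 2049 alternative values computed for 94 results of single named genes, 1845 kept their direction and side of the threshold, 135 kept the direction and lost the call, 42 gained one and 27 changed sign. Every change of sign was in Cenpa, Incenp or Smc4, in values near 0. For each change given here the cause was not tested.

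Fitted on the compared groups alone, the calls over all genes in the spleen genotype comparison numbered 2271, and 46 mitosis genes rose in lung. By limma, 46 of them rose in lung too, Cenpa in lung stood at 0.0023, and the calls over all genes were 4598 (lung genotype), 1046 (tissue in WT), 228 (tissue in ∆Foxp3) and 190.0 (interaction). DESeq2 called 1046 genes between the tissues in WT, 235 in ∆Foxp3, 304 in the interaction and 44 of the mitosis genes there. With no low-count filter, 957, 292 and 363 genes were called in those comparisons. Without the 3 libraries that stand apart, 1321 genes were called in the lung genotype comparison, where 4 mitosis genes rose and 1 fell, Incenp in lung was −0.013, and 13 were called in the interaction. Smc4 between the tissues in WT was −0.077 with library totals, −0.023 with no filter, −0.027 at 10 CPM or more, −0.063 by limma and −0.11 without those 3 libraries. In ∆Foxp3 it was −0.022 with totals and −0.089 by limma, and in the interaction −0.015 with RLE factors, −0.015 by DESeq2, −0.026 by limma and −0.010 with thinned counts. Without Smc4 and Cdc25b, a choice made after seeing the data, the summed share was 0.0854% in spleen WT and 0.374% in lung WT.

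Leaving out each library in turn gave 1457 to 3362 calls over all genes in the lung genotype comparison (5 to 34 mitosis genes higher, 1 to 2 lower), 281 to 693 between the tissues in WT, 42 to 152 in ∆Foxp3 and 36 to 178 in the interaction (7 to 43 mitosis genes). Cenpa in lung ran from −0.22 to 0.11, Incenp from −0.074 to 0.61, and Smc4 from −0.073 to 0.077 between the tissues in WT, −0.16 to 0.18 in ∆Foxp3 and −0.16 to 0.16 in the interaction.

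Replicate numbers are not stated to pair libraries, and same-numbered libraries of different groups had correlated deviations above 0.1 in 3 of 18 pairs (range −0.14 to 0.15). Differently numbered libraries of different groups had a similar range, −0.23 to 0.15. With the number as a replicate block, 74 genes and 17 mitosis genes were called in the interaction, Smc4 between the tissues in WT was −0.010, and 16 mitosis genes rose in lung. Depth limits the fold changes against spleen WT, where Kif4, Kif2c, Kif14, Pbk and Anln had 0 counts in 1 library each.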
